A study of Mus musculus with 36 samples.

Results

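Transcript levels of 7 regulators of meiotic entry, *Stra8*, *Meiosin*, *Meioc*, *Ythdc2*, *Rbm46*, *Dmrtc2* and *Dmrt1*, were followed in mouse fetal germ cells and gonads from control pregnancies and from pregnancies with intrauterine hyperglycemia (IUHG). The genes were taken by symbol from the deposited tables, and they are 7 of the 57126 genes listed for germ cells. All 7 were also found among the 56262 genes listed for gonads, where *Meiosin* has the older name Gm4969 and was matched by its Ensembl ID. Every value is in TPM, an RNA level scaled by transcript length and library total.

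The data were 36 bulk RNA-seq libraries in 12 groups of 3, labelled as biological replicates, and all mice carried the label WT. Primordial germ cells (PGCs) gave 30 libraries: control and IUHG PGCs at E12.5, whose sex is labelled as not determined, and PGCs of each sex at the later stages E13.5 and E16.5. They were sorted as EGFP-positive cells from the gonads of fetuses sired by *Oct4-EGFP* males, so in control and IUHG groups alike they carry a reporter driven by regulatory sequence of a pluripotency gene, and each library pools several fetuses. The other 6 libraries came from whole E13.5 female gonads, control and IUHG, which hold somatic cells as well as germ cells. Dams of the IUHG groups received streptozotocin (STZ), a toxin of insulin-producing pancreatic β cells, on gestational day 3.5 (120 mg/kg), and were included when blood glucose exceeded 14 mM at E6.5. The sources used here name no injection for the control dams, so an effect of the drug itself and one of hyperglycemia cannot be told apart in these libraries.

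In the fetal ovary, retinoic acid and BMP signals switch germ cells from mitosis to meiosis, and STRA8 is the factor best known for this switch. STRA8 acts together with MEIOSIN as a transcription activator of meiotic genes, while MEIOC, YTHDC2 and RBM46 bind one another or RNA and let germ cells leave the mitotic program. In the fetal testis the same cells are kept out of meiosis, partly because CYP26B1 removes retinoic acid and NANOS2 represses meiotic transcripts, and DMRT1 and DMRTC2 belong to the DM-domain family of transcription factors, of which DMRT1 acts on *Stra8* in a sex-dependent way.

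By the PGC tables, whose coordinates are those of GRCm39, *Stra8* (ENSMUSG00000029848) lies at chr6:34897098-34916279 on the plus strand and *Meiosin* (ENSMUSG00000085601) at chr7:18832971-18852293 on the minus strand. *Meioc* (ENSMUSG00000051455) lies at chr11:102556414-102573063 on the plus strand and *Rbm46* (ENSMUSG00000033882) at chr3:82744535-82783790 on the minus strand. *Dmrtc2* (ENSMUSG00000011349) lies at chr7:24569482-24577076 and *Dmrt1* (ENSMUSG00000024837) at chr19:25482982-25581693, both on the plus strand, and *Ythdc2* is ENSMUSG00000034653.

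RefSeq promoter windows, from 250 bases before to 50 bases after the gene start in build GRCm38.p6, were matched for 5 of the 7 genes, and *Dmrt1* and *Ythdc2* had no entry. The windows of *Stra8* (chr6:34920698-34920997, plus strand), *Meiosin* (chr7:19118295-19118594, minus strand, RefSeq symbol *Bhmg1*), *Meioc* (chr11:102665335-102665634, plus strand) and *Dmrtc2* (chr7:24869807-24870106, plus strand) are printed because the IUHG effects on these 4 genes differed between the sexes at E13.5. Capitals mark every match, on either strand, to 5 motifs. CCTCAG is a motif described for STRA8. The E-box motif searched was CACGTG. For the retinoic acid receptor, the half-site AGGTCA was searched. GCGGGAA stands for E2F factors. The core of the DMRT1 motif was taken as ACAATGT.
Stra8: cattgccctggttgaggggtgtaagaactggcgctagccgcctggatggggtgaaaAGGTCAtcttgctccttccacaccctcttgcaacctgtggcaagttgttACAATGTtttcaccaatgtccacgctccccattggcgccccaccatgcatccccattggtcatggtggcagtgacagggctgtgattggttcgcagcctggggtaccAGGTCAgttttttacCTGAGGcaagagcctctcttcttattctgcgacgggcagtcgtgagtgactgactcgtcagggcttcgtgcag
Meiosin: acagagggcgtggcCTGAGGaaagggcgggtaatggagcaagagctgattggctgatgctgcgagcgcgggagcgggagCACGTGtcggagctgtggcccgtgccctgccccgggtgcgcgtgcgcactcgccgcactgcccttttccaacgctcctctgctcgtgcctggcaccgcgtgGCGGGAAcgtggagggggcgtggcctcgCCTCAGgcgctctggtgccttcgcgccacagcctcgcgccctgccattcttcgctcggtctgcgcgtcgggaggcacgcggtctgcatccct
Meioc: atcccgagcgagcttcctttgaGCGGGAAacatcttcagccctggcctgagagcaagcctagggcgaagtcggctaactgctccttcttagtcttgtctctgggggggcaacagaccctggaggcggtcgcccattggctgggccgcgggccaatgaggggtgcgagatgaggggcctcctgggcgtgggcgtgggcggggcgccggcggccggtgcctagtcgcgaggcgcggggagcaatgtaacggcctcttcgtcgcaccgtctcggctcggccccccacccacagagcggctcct
Dmrtc2: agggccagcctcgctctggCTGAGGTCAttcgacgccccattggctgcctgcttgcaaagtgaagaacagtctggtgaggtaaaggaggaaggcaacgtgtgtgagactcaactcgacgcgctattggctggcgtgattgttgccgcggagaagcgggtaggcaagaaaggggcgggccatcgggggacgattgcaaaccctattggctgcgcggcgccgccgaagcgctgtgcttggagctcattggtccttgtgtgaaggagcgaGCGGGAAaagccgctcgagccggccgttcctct
The *Stra8* window held the retinoic acid receptor half-site at 2 places, 194 and 38 bases before the start, with 1 match each to the STRA8 and DMRT1 motifs. The *Meiosin* window held 2 matches to the STRA8 motif and 1 each to the E-box and the E2F motif, and the *Meioc* window held 1 match to the E2F motif. The *Dmrtc2* window held 1 match each to the STRA8 motif, the half-site and the E2F motif, of which the first pair share 3 bases and run together in capitals. The *Rbm46* window (chr3:82876434-82876733, minus strand) held 2 matches to the STRA8 motif and 1 to the E-box. Of 32851 RefSeq promoter windows of this length, 26.8% held the STRA8 motif, 7.15% the E-box, 16.3% the half-site, 4.6% the E2F motif and 2.96% the DMRT1 core. These are matches of letters only, and the RefSeq start site of the gene differed from the start in the gonad tables by 785 bases for *Stra8*, 1869 for *Meioc* and 24 for *Meiosin*.

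The libraries held 3.25 to 8.32 gigabases over genes in PGCs and 3.89 to 4.95 gigabases in gonads, and their read counts were not known, so no counting error is given. Germ cell markers were present in every sorted group: 6 of 6 pan-germ markers (*Ddx4*, *Dazl*, *Dnd1*, *Dppa3*, *Pou5f1* and *Kit*) had a mean of at least 1 TPM in each of the 10 PGC groups. The 4 Y-linked markers summed to at most 0.0187 TPM in E13.5 female PGCs, and to between 116 and 183 TPM in E13.5 male PGCs. One library went against its label: control gonad library 1, labelled female, had a Y-linked sum of 51.3 TPM, where the other 5 gonad libraries were at 0, and a Sertoli marker sum of 289 TPM, where the others were between 27.2 and 37.1. E13.5 female IUHG library 3 also stood apart from the other two of its group for several of the 7 genes. Where leaving out either library changed a call of the 7 genes, both values are given.

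**Figure D1:**
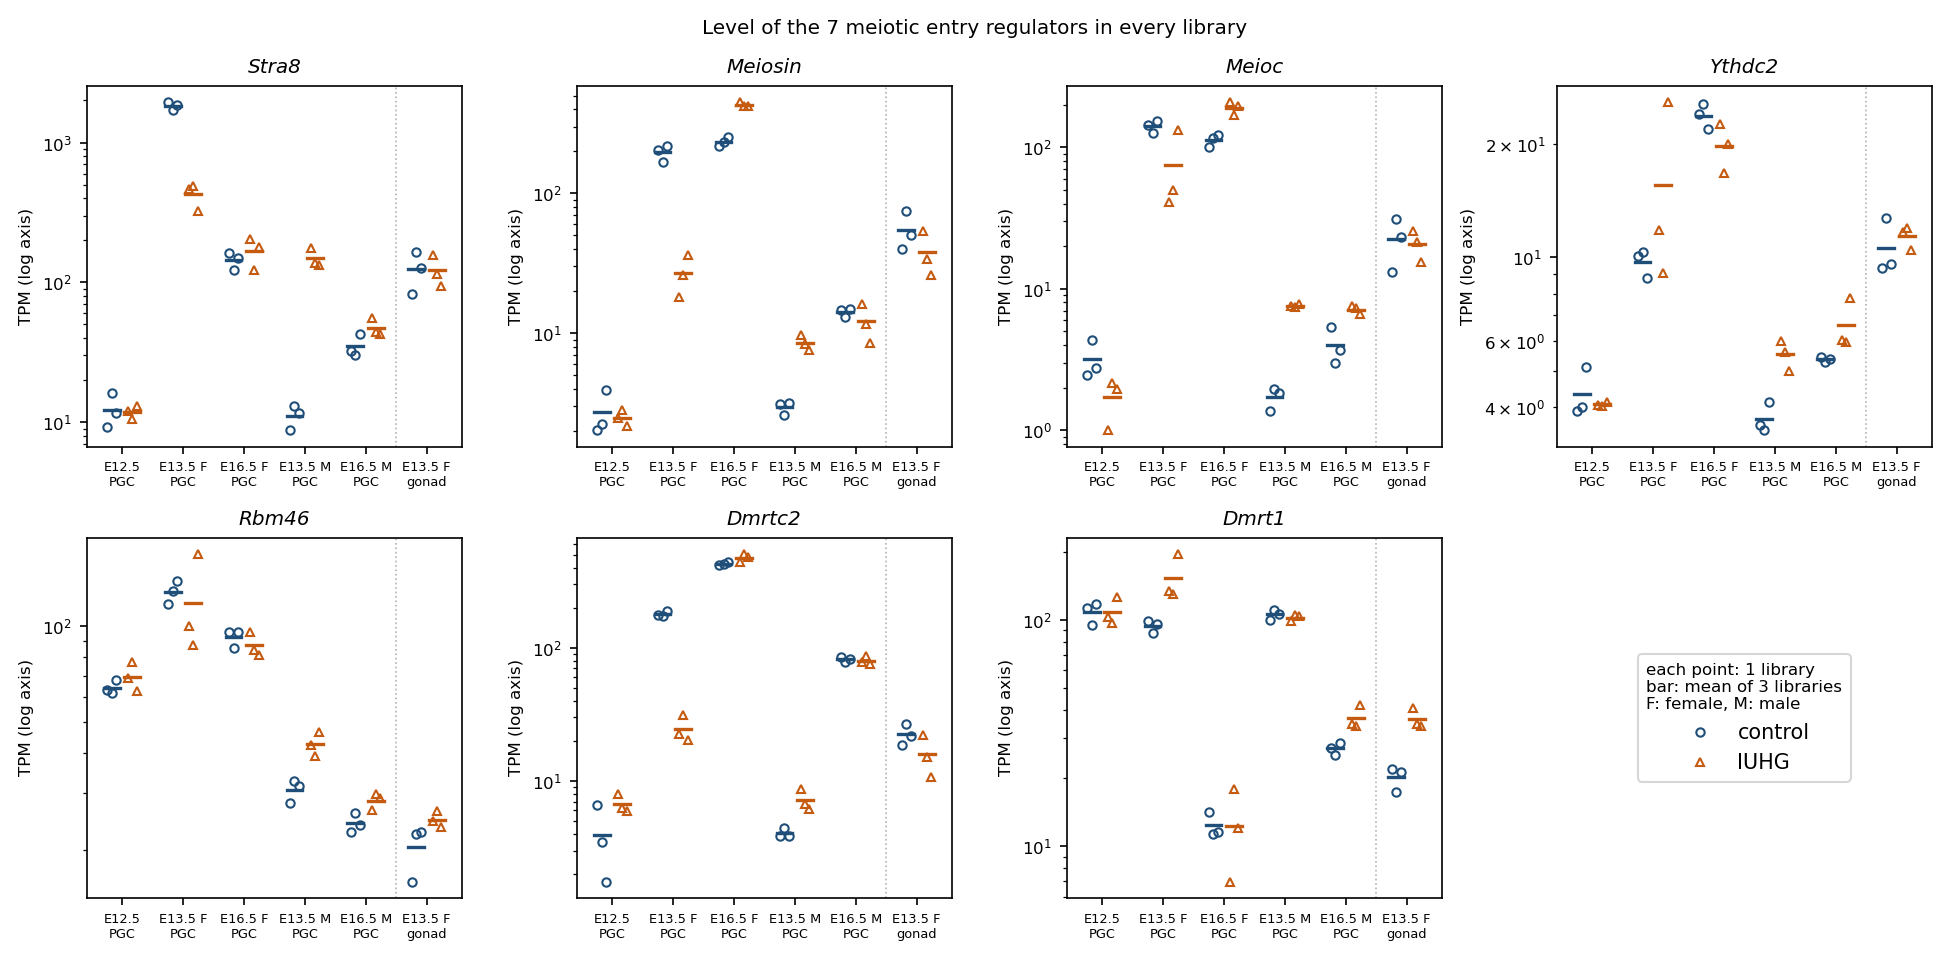
TPM of each of the 7 genes in every library, 1 panel per gene, on a log axis, with groups along the horizontal axis; circles are control libraries, triangles are IUHG libraries and bars are the means of 3. *Stra8* reached 1936 TPM in E13.5 female control PGCs and was at most 13.0 TPM in E13.5 male control PGCs, while *Ythdc2* stayed between 3.47 and 25.7 TPM across all PGC libraries.

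Across the PGC groups the regulators fell into a strongly and a weakly varying set. The highest group mean exceeded the lowest by a factor of 173 for *Meiosin*, 164 for *Stra8*, 121 for *Dmrtc2* and 112 for *Meioc*, against 12.4 for *Dmrt1*, 6.38 for *Ythdc2* and 5.29 for *Rbm46*. The plot of levels by group shows that all of the regulators had their highest PGC group mean in a female group. For *Dmrt1* that group was E13.5 IUHG females, and *Dmrt1* was low in both sexes at E16.5.

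In control PGCs, *Stra8*, which encodes the retinoic acid-responsive activator of meiosis, was at 9.31, 16.1 and 11.6 TPM at E12.5. It was at 1936, 1718.5 and 1841 TPM in E13.5 females, and at 8.73, 13.0 and 11.7 TPM in E13.5 males. The female group lay far above both others, which overlapped. At E16.5 the 3 female libraries were at 161, 123 and 149.8 TPM and the 3 male libraries at 32.4, 30.0 and 43.1 TPM. The order of the group means was E13.5 female, E16.5 female, E16.5 male, E12.5 and E13.5 male, with overlap only between the last 2.

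*Meiosin*, which encodes the partner of STRA8, had another time course. Control levels were 2.02, 2.22 and 3.91 TPM at E12.5, 204, 168 and 217 TPM in E13.5 females, and 3.13, 2.62 and 3.18 TPM in E13.5 males. At E16.5 they were 219.6, 232 and 253 TPM in females and 14.7, 13.0 and 14.9 TPM in males. *Meiosin* thus had its highest control mean in E16.5 females, when *Stra8* was far below its E13.5 peak. The *Meiosin* difference from E13.5 females was small, at 0.26 on the log2 scale, and -0.0010 under another scaling described below. The only neighbours in the order of *Meiosin* that overlapped were E13.5 male and E12.5. The level of *Stra8* was 8.48 to 10.2 times that of *Meiosin* in the E13.5 female control libraries, and 0.530 to 0.733 times in the E16.5 female ones, a comparison of TPM values, which are per length.

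*Meioc*, whose product works with YTHDC2 in clearing mitotic transcripts, was at 2.44, 4.31 and 2.75 TPM at E12.5, 143, 127 and 154 TPM in E13.5 females and 1.38, 1.96 and 1.82 TPM in E13.5 males. At E16.5 it was at 100.3, 116 and 122 TPM in females and 5.40, 2.96 and 3.66 TPM in males, the latter overlapping with E12.5. Both female groups stood apart from every other control group. *Ythdc2*, an RNA helicase that binds methylated RNA, had a mean of 4.33 ± 0.673 TPM (SD, n = 3) at E12.5, 9.73 ± 0.815 in E13.5 females and 3.72 ± 0.352 in E13.5 males. It reached 23.7 ± 1.80 TPM in E16.5 females, its highest group, and 5.35 ± 0.092 TPM in E16.5 males. *Rbm46*, an RNA-binding protein gene required for meiotic entry, was already at 64.3 ± 3.25 TPM at E12.5, with 128 ± 10.9 in E13.5 females, 30.8 ± 2.42 in E13.5 males, 92.4 ± 6.03 in E16.5 females and 24.3 ± 1.66 in E16.5 males. Its 5 control groups did not overlap. The coverage of *Rbm46* was 0.0678 to 0.0730 of the value expected from its FPKM in every PGC library, for a cause that was not tested, and levels of *Rbm46* are therefore not set against those of other genes.

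Of the DM-domain genes, *Dmrtc2* was at 6.62, 3.48 and 1.74 TPM at E12.5 and at 176, 172 and 188 TPM in E13.5 females, against 3.88, 4.41 and 3.85 TPM in E13.5 males. At E16.5 it was at 417, 425 and 442 TPM in females and 85.1, 78.1 and 83.0 TPM in males, where it was the most abundant of the 4 strongly varying genes. *Dmrt1* ran the other way: 113, 94.8 and 118 TPM at E12.5, 98.9, 87.4 and 96.1 TPM in E13.5 females, 101, 111 and 107 TPM in E13.5 males, then 14.2, 11.3 and 11.6 TPM in E16.5 females and 27.3, 25.3 and 28.7 TPM in E16.5 males. Both E16.5 groups of *Dmrt1* lay below every earlier library, and E12.5 overlapped with E13.5 males and with E13.5 females.

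Control E13.5 female PGCs were compared with control E12.5 PGCs. The E12.5 libraries are not labelled by sex and held Y-linked transcripts, so stage and sex cannot be told apart in this comparison. Differences were tested with limma on log2(TPM + 1) over all genes with a mean of at least 1 TPM in a fitted group, with Benjamini-Hochberg adjustment, and a PGC gene was called when its adjusted p was under 0.01 and its log2 difference above 1 in size. The scale of log2(TPM + 1) understates differences of low genes. Called higher were 5 of the 7 genes, *Stra8* by 7.14 (SE 0.16), *Meiosin* by 5.76 (SE 0.19), *Dmrtc2* by 5.31 (SE 0.29), *Meioc* by 5.11 (SE 0.18) and *Ythdc2* by 1.01 (SE 0.19), where 18.5% of 15383 genes were called higher. *Rbm46* was higher by 0.98, just under the fold limit, and *Dmrt1* differed by -0.20 (adjusted p = 0.138, limma). Under median-of-ratios scaling, which moved the median difference of all genes from 0.27 to 0.03, *Ythdc2* was no longer called (0.76), nor was it on FPKM (0.91), and the call was also lost without E12.5 control library 1 (0.96) or 2 (0.97) or without E13.5 female control library 1 (0.99) or 2 (0.97). *Rbm46* passed on FPKM (1.01) and without E12.5 control library 3 (1.02) or E13.5 female control library 1 (1.05).

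Between control E13.5 male PGCs and control E12.5 PGCs, only *Rbm46* was called, where 7.26% of 14531 genes were called lower. It was lower in the males by 1.04 (SE 0.09). The call was lost without E12.5 control library 3 (-0.998) and without E13.5 male control library 1 (-0.97), and on FPKM (-0.90) or coverage (-0.86). *Stra8* (-0.12), *Meiosin* (0.13), *Dmrtc2* (0.15) and *Dmrt1* (-0.03) had 95% intervals that included 0. *Meioc* had a difference of -0.60 with an adjusted p of 0.0311 by limma. E12.5 libraries are not labelled by sex, and their Y-linked sum was 194 to 212 TPM in controls. Stage and sex therefore cannot be told apart in this comparison either.

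From E13.5 to E16.5 the 7 genes went different ways in control females. *Stra8* fell by 3.66 on the log2 scale (SE 0.11) and *Dmrt1* fell by 2.83 (SE 0.15), 2 of 7 genes against 9.78% of 17988 genes called lower. *Dmrtc2* rose by 1.26 (SE 0.09) and *Ythdc2* by 1.21 (SE 0.17), against 18.4% called higher. Under median-of-ratios scaling both rises were under the fold limit (0.99 and 0.96), as was that of *Ythdc2* on FPKM (0.99), and the median of all genes moved from 0.31 to 0.09. *Meiosin* differed by 0.26 (adjusted p = 0.0822, limma), *Meioc* by -0.32 and *Rbm46* by -0.47. In control males *Dmrtc2* rose by 4.04 (SE 0.09), *Meiosin* by 1.94 (SE 0.12) and *Stra8* by 1.57 (SE 0.17), while *Dmrt1* fell by 1.93 (SE 0.07). Of 20434 genes, 38.3% were called higher and 12.7% lower. *Meioc* differed by 0.86, under the fold limit, and by more than it without E16.5 male control library 2 (1.01) or with a pseudocount of 0.1 (1.15). That male comparison had a median of 0.62 over all genes, which median-of-ratios scaling moved to 0.33.

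The sexes differed in control PGCs at both stages. At E13.5, 6 of 7 genes were called higher in females, where 20.4% of 15718 genes were: *Stra8* by 7.25 (SE 0.13), *Meioc* by 5.71 (SE 0.13), *Meiosin* by 5.63 (SE 0.13), *Dmrtc2* by 5.16 (SE 0.10), *Rbm46* by 2.02 (SE 0.10) and *Ythdc2* by 1.18 (SE 0.15). *Dmrt1* differed by -0.17 and was not called. In means, control females held 164 times the *Stra8* of males, 82.2 times the *Meioc*, 66.0 times the *Meiosin* and 44.2 times the *Dmrtc2*. Median-of-ratios scaling moved the median of all genes from 0.28 to -0.00 and *Ythdc2* to 0.90, under the fold limit, where it also lay on FPKM (0.97). At E16.5 the same 6 genes were higher in females, where 22.9% of 22065 genes were, and *Dmrt1* was lower by 1.08 (SE 0.14), where 28.0% were. The female to male ratio of means was 28.1 for *Meioc*, 16.52 for *Meiosin*, 5.22 for *Dmrtc2* and 4.11 for *Stra8*. The median of all genes was -0.11 there, and -0.33 under median-of-ratios scaling.

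**Figure D2:**
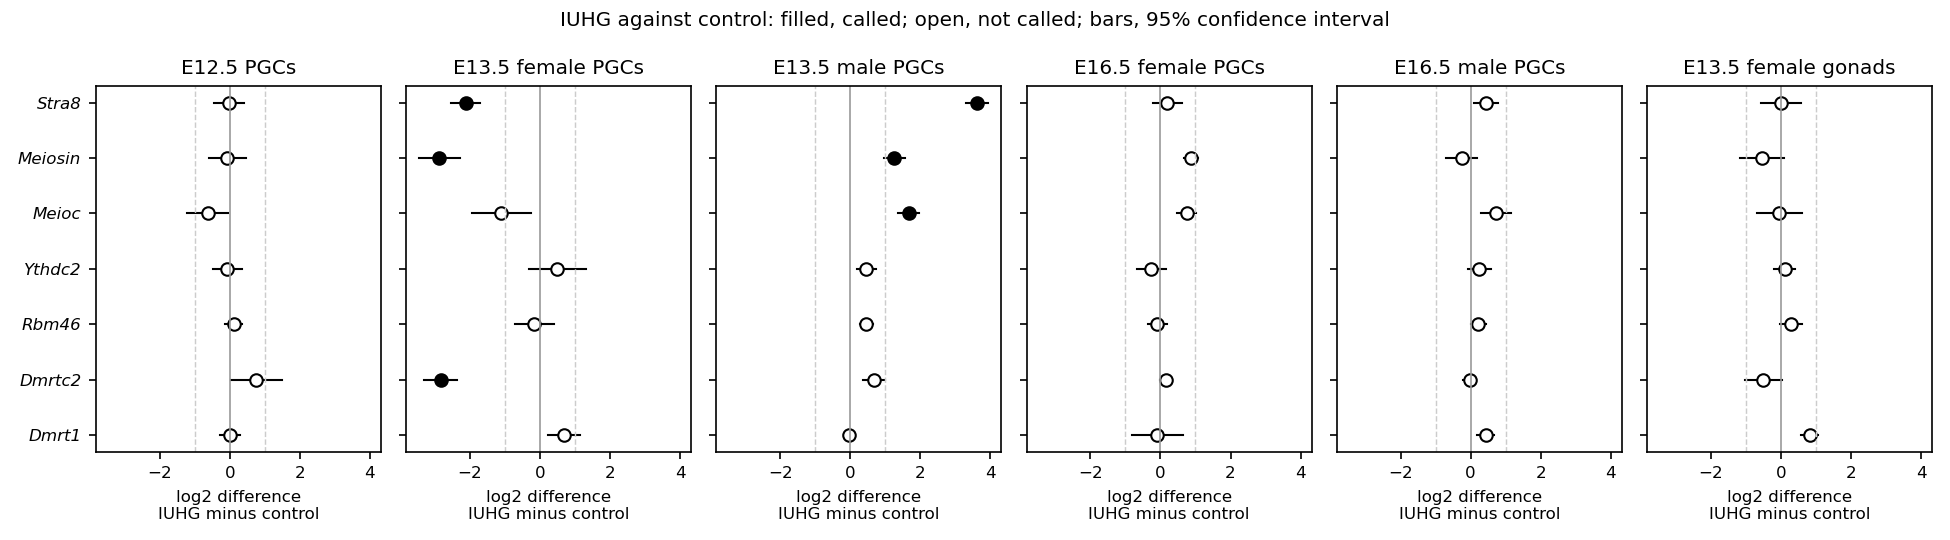
Log2 difference in TPM + 1 between IUHG and control for each of the 7 genes, 1 panel per stage, sex and tissue, with 95% intervals; filled points passed the test. *Stra8*, *Meiosin* and *Dmrtc2* lie below 0 in E13.5 female PGCs, and *Stra8*, *Meiosin* and *Meioc* lie above 0 in E13.5 male PGCs.

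In E13.5 female PGCs, 3 of the 7 genes were lower under IUHG. *Stra8* was at 466, 491 and 326 TPM in IUHG females, against 1936, 1718.5 and 1841 TPM in controls. *Meiosin* was at 18.1, 26.1 and 36.5 TPM against 204, 168 and 217 TPM. *Dmrtc2* was at 22.4, 31.1 and 20.2 TPM against 176, 172 and 188 TPM. For each of these genes every IUHG library lay below every control library. By limma with Benjamini-Hochberg adjustment, *Stra8* fell by 2.12 on the log2 scale (SE 0.19, adjusted p = 0.0011), *Meiosin* by 2.87 (SE 0.26, adjusted p = 0.00123) and *Dmrtc2* by 2.84 (SE 0.21, adjusted p = 0.000456). In means the control level was 4.28 times the IUHG level for *Stra8*, 7.30 times for *Meiosin* and 7.29 times for *Dmrtc2*. Only 0.435% of 16539 genes were called lower, and 13.2% were lower without overlap. Median-of-ratios scaling moved the median of all genes from 0.14 to 0.00, and the 3 genes were still called.

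*Meioc* was at 40.8, 50.4 and 133 TPM in IUHG females, against 143, 127 and 154 TPM in controls. The third IUHG library lay inside the control range and the other two well below it. The difference was -1.10 (SE 0.38) with an adjusted p of 0.134 by limma, and -1.61 with an adjusted p of 0.000339 without that library, which passes the test and brings the count to 4. Of all genes, 2.09% were called lower without that library, against 0.435% with it. With all PGC groups in 1 fit *Meioc* was also called with every library kept (adjusted p = 0.00567, limma), where 1237 of all genes were called, against 85 in the main fit. The same library was high for *Ythdc2*, at 25.7 TPM against 11.8 and 9.09, and for *Rbm46*, at 168 TPM against 99.99 and 87.4. Neither gene was called with all libraries (0.50 and -0.17) or without that one, when *Ythdc2* was at 0.09 (adjusted p = 0.82, limma) and *Rbm46* at -0.45 (adjusted p = 0.0592, limma). *Dmrt1* was at 134, 130.4 and 196 TPM in IUHG females and 98.9, 87.4 and 96.1 TPM in controls, all IUHG libraries above all controls, as for 19.8% of genes, with a difference of 0.68 and an adjusted p of 0.102 by limma. Without IUHG library 3 it was 0.49 (adjusted p = 0.0354, limma), and it was not called.

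Leaving out 1 library changed these calls and changed the differences little. Without control library 1 or 3, 1 gene (*Dmrtc2*) passed, and without control library 2 none did, with adjusted p between 0.00889 and 0.0202 by limma for the 3 genes and log2 differences between -2.98 and -2.08; without IUHG library 2, *Meiosin* had an adjusted p of 0.0107. With no filter on low values 0 of the 7 genes passed, although the differences were the same.

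Markers of other cell types were also read in these libraries. In E13.5 female PGCs the Sertoli marker sum was 2.55 to 2.91 TPM in controls and 0.972 to 2.33 TPM in IUHG, and the pregranulosa sum was 12.1 to 13.4 and 7.83 to 14.9 TPM, for 5 markers each. The pan-germ sum was 4704 to 4990 TPM in controls and 5628 to 6494 TPM in IUHG. The sum of 4 endothelial markers was 50.8 to 69.5 TPM in controls and 89.2 to 209 TPM in IUHG, nearly all of it *Pecam1*, which germ cells also express, while *Kdr* was at most 0.65 TPM. None of these markers passed the test, and their part in the result was not tested. In bulk samples fewer cells of a type and less RNA per cell cannot be told apart, so a lower *Stra8* value can be either.

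The relation between the 7 genes also differed in E13.5 females. The ratio of *Meioc* to *Ythdc2* TPM was 12.3 to 17.5 in the control libraries and 3.45 to 5.54 in the IUHG libraries, with library 3 inside that range although both genes were high in it. The ratio of *Stra8* to *Meiosin* was 8.48 to 10.2 in controls and 25.7, 18.8 and 8.93 in IUHG libraries 1, 2 and 3, so the groups overlapped. The ratio of *Stra8* to *Dmrtc2* was 9.79 to 11.0 in controls and 15.8 to 20.8 in IUHG, without overlap. Ratios are given as values and were not tested.

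In E13.5 male PGCs, 3 of the 7 genes were higher under IUHG. *Stra8* was at 175, 138 and 134 TPM in IUHG males, against 8.73, 13.0 and 11.7 TPM in controls. *Meiosin* was at 9.69, 8.39 and 7.52 TPM against 3.13, 2.62 and 3.18 TPM. *Meioc* was at 7.53, 7.42 and 7.85 TPM against 1.38, 1.96 and 1.82 TPM. No IUHG library overlapped with a control library for these genes. By limma with Benjamini-Hochberg adjustment, *Stra8* rose by 3.63 on the log2 scale (SE 0.14, adjusted p = 2.74e-07), *Meioc* by 1.67 (SE 0.13, adjusted p = 2.15e-05) and *Meiosin* by 1.26 (SE 0.13, adjusted p = 0.000113), and all 3 calls held without any 1 library. In means the IUHG level was 13.3 times the control level for *Stra8*, 4.42 times for *Meioc* and 2.87 times for *Meiosin*, where 2.03% of 14473 genes were called higher.

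The remaining male differences were smaller. *Dmrtc2* was at 8.70, 6.67 and 6.14 TPM in IUHG males and 3.88, 4.41 and 3.85 TPM in controls, a difference of 0.68 that passed on p (adjusted p = 0.00491, limma) and not on size. *Rbm46* was at 42.5, 39.4 and 46.7 TPM against 28.1, 32.7 and 31.6 TPM, a difference of 0.46 (adjusted p = 0.00276, limma). *Ythdc2* was at 5.97, 5.61 and 4.98 TPM against 3.58, 3.47 and 4.13 TPM, a difference of 0.46 (adjusted p = 0.018, limma). Counting these, 6 of the 7 genes were higher in every IUHG library, against 21.8% of genes. *Dmrt1* was at 98.7, 105 and 104 TPM in IUHG males and 101, 111 and 107 TPM in controls, with a difference of -0.05 and a 95% interval from -0.17 to 0.08.

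At 149 ± 22.6 TPM (SD, n = 3), *Stra8* in IUHG males was near the E16.5 female control mean of 145 ± 19.5 TPM, the 2 groups overlapping, and below the 428 ± 88.9 TPM of E13.5 IUHG females. The ratio of *Stra8* to *Meiosin* was 2.79 to 4.97 in control males and 16.4 to 18.0 in IUHG males. In the same libraries the sum of the 5 interstitial markers was 15.2 to 18.6 TPM in controls and 1.37 to 3.69 TPM in IUHG, with *Cyp11a1* (-2.81) and *Hsd3b1* (-2.38) called lower and *Irx3*, a pregranulosa marker, called higher (1.29). The Y-linked sum was 151 to 183 TPM in controls and 116 to 119.6 TPM in IUHG, and the Sertoli sum was 35.3 to 42.0 and 28.0 to 35.7 TPM. The part of these in the male result was not tested.

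The IUHG effects of the sexes at E13.5 were compared in 1 fit over the 12 libraries. The effect in females minus that in males was -5.75 for *Stra8* (SE 0.25, adjusted p = 4.88e-08), -4.13 for *Meiosin* (SE 0.30, adjusted p = 8.45e-06), -3.52 for *Dmrtc2* (SE 0.25, adjusted p = 5.5e-06) and -2.77 for *Meioc* (SE 0.45, adjusted p = 0.00268) on the log2 scale by limma. These 4 of 7 genes passed, where 2.00% of 17389 genes passed with a more negative effect in females. *Dmrt1* (0.72, adjusted p = 0.0418, limma), *Rbm46* (-0.63) and *Ythdc2* (0.03) did not. The ratio of female to male means at E13.5 was 164 in controls and 2.88 in IUHG for *Stra8*, 66.0 and 3.15 for *Meiosin*, 44.2 and 3.42 for *Dmrtc2*, and 82.2 and 9.81 for *Meioc*, with no overlap of the sexes in any of these. *Meioc* lost its call without male control library 1 (adjusted p = 0.0109, limma) or without male IUHG library 1 (0.0106) or 3 (0.0104), and with no filter on low values. Without female IUHG library 3, *Rbm46* (-0.91) and *Dmrt1* (0.54) passed. Median-of-ratios scaling moved the median of all genes from 0.16 to -0.01.

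At E12.5 no gene of the 7 was called between IUHG and control. *Stra8* was at 12.0, 10.5 and 13.1 TPM in IUHG and 9.31, 16.1 and 11.6 TPM in controls. *Meiosin* was at 2.47, 2.80 and 2.16 TPM against 2.02, 2.22 and 3.91 TPM. For both genes the groups overlapped, and their 95% intervals were -0.46 to 0.42 and -0.60 to 0.47. At an unadjusted p under 0.05, limma found 2 of the 7 genes, where 15.7% of 13770 genes were found and 0.247% were called: *Meioc*, with 0.995, 2.14 and 1.97 TPM in IUHG, all below the controls, as for 9.12% of genes (-0.63, adjusted p = 0.281), and *Dmrtc2*, with 7.99, 6.22 and 5.93 TPM (0.75, adjusted p = 0.304). The Y-linked sum was 194 to 212 TPM in E12.5 controls and 130 to 154 TPM in IUHG, and its part in these values was not tested.

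The effect at E13.5 in females differed from that at E12.5 for *Stra8*, *Meiosin* and *Dmrtc2*. The E13.5 female effect minus the E12.5 effect was -2.09 for *Stra8* (SE 0.28, adjusted p = 0.00131), -2.80 for *Meiosin* (SE 0.36, adjusted p = 0.00114) and -3.59 for *Dmrtc2* (SE 0.42, adjusted p = 0.000582) by limma, 3 of 7 genes where 0.527% of 17063 were called lower, with a median of all genes of 0.13 that median-of-ratios scaling moved to 0.01. With no filter on low values *Stra8* was not called. Within IUHG, E13.5 female PGCs were compared with E12.5 PGCs. *Stra8* was higher in the E13.5 females by 5.04 (SE 0.22), *Meioc* by 4.64 (SE 0.42), *Meiosin* by 2.96 (SE 0.30) and *Dmrtc2* by 1.71 (SE 0.26), 4 of 7 genes where 3.36% of 16175 were called higher. Mean *Stra8* was 11.9 TPM at E12.5 and 428 TPM in E13.5 females under IUHG, against 12.3 and 1832 TPM in controls. The E12.5 libraries are not labelled by sex and held Y-linked transcripts. Stage and sex therefore cannot be told apart in this comparison or in the difference of effects above. Without E12.5 IUHG library 1, 2 or 3, 2 of the 7 genes were called, since *Meiosin* and *Dmrtc2* missed the limit on p. *Dmrtc2* was also not called without E13.5 female IUHG library 1 (1.77) or 2 (1.54), and *Ythdc2* (1.17) was called without library 3, which gave 5. *Ythdc2* (1.58) also passed on FPKM (1.31), on unadjusted p and with all PGC groups in 1 fit, while *Meioc*, *Meiosin* and *Dmrtc2* did not pass without the filter on low values. Under median-of-ratios scaling *Dmrtc2* was not called (1.32), and the median of all genes went from 0.40 to 0.05.

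At E16.5 *Stra8*, *Meiosin* and *Dmrtc2* were not called in either direction in females. *Stra8* was at 206, 122 and 179 TPM in IUHG females and 161, 123 and 149.8 TPM in controls, which overlapped. *Dmrtc2* was at 442.5, 508 and 481 TPM against 417, 425 and 442.2 TPM. *Meiosin* was at 448, 419.4 and 419.0 TPM against 219.6, 232 and 253 TPM, above every control library. Its difference of 0.87 (SE 0.09) had an adjusted p of 0.00136 by limma but was under the fold limit. *Meioc* was at 208, 169 and 195 TPM against 100.3, 116 and 122 TPM, also without overlap, with a difference of 0.75 and an adjusted p of 0.0103 by limma. With *Dmrtc2* these were 3 of 7 genes higher without overlap, against 14.9% of genes. None of the 7 was called, where 0.736% of 18753 genes were, and limma found 2 of 7 at an unadjusted p under 0.05, where 22.8% were found.

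The other female genes at E16.5 had overlapping groups. *Ythdc2* was at 22.5, 16.7 and 20.0 TPM in IUHG and 23.9, 25.4 and 21.9 TPM in controls, a difference of -0.26. *Rbm46* differed by -0.08. *Dmrt1* was at 6.97, 18.0 and 12.1 TPM in IUHG, a wider range than the 11.3 to 14.2 TPM of the controls. The ratio of *Meioc* to *Ythdc2* was 9.23 to 10.1 in IUHG females and 4.19 to 5.58 in controls, so IUHG was the higher group here and the lower one at E13.5.

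The E16.5 female effect minus the E13.5 female effect was 3.74 for *Meiosin* (SE 0.28, adjusted p = 3.02e-06), 2.99 for *Dmrtc2* (SE 0.22, adjusted p = 2.63e-06) and 2.31 for *Stra8* (SE 0.28, adjusted p = 0.000191) by limma, 3 of 7 genes where 1.35% of 20584 were called higher. *Meioc* had 1.86 with an adjusted p of 0.0225 by limma, and passed without E13.5 female IUHG library 3 (2.36), on FPKM (1.94), under median-of-ratios scaling (1.96), on unadjusted p and with all PGC groups in 1 fit. The median of all genes was -0.10, and -0.02 under median-of-ratios scaling. Within IUHG, from E13.5 to E16.5 in females, *Dmrtc2* rose by 4.25 (SE 0.21) and *Meiosin* by 4.00 (SE 0.25), where 15.3% of 19230 genes were called higher. *Dmrt1* fell by 3.597 (SE 0.34) and *Stra8* by 1.35 (SE 0.24), where 10.4% were called lower. *Stra8* lost its call without E13.5 female IUHG library 1 (-1.28) or 2 (-1.24) or E16.5 female IUHG library 3 (-1.41), and with no filter on low values. *Meioc* rose by 1.53 and was not called, but it passed without E13.5 female IUHG library 3 (2.04), on FPKM (1.48), under median-of-ratios scaling (1.39), and, at the same difference, on unadjusted p, with the replicate block and with all PGC groups in 1 fit. Median-of-ratios scaling moved the median of all genes from 0.18 to 0.06.

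In E16.5 male PGCs no gene of the 7 was called, where 0.201% of 20945 genes were. *Stra8* was at 56.0, 44.0 and 42.6 TPM in IUHG and 32.4, 30.0 and 43.1 TPM in controls, overlapping. *Meioc* was at 7.51, 7.29 and 6.59 TPM against 5.40, 2.96 and 3.66 TPM, a difference of 0.72 (adjusted p = 0.0611, limma). *Dmrt1* was at 34.7, 33.9 and 42.2 TPM against 27.3, 25.3 and 28.7 TPM, a difference of 0.43 (adjusted p = 0.0503, limma). Together with *Ythdc2* and *Rbm46*, 4 of 7 genes were higher in every IUHG library, against 17.8% of genes, and limma found 4 at an unadjusted p under 0.05, where 23.9% were found. The IUHG effects of the sexes at E16.5 differed for none of the 7, where 1.18% of 24051 genes did, with 2 at an unadjusted p under 0.05, where 19.4% were: *Meiosin*, at 1.12 (adjusted p = 0.0222, limma), and *Ythdc2*, at -0.51. *Meiosin* passed without E16.5 male IUHG library 1 (1.33).

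**Figure D3:**
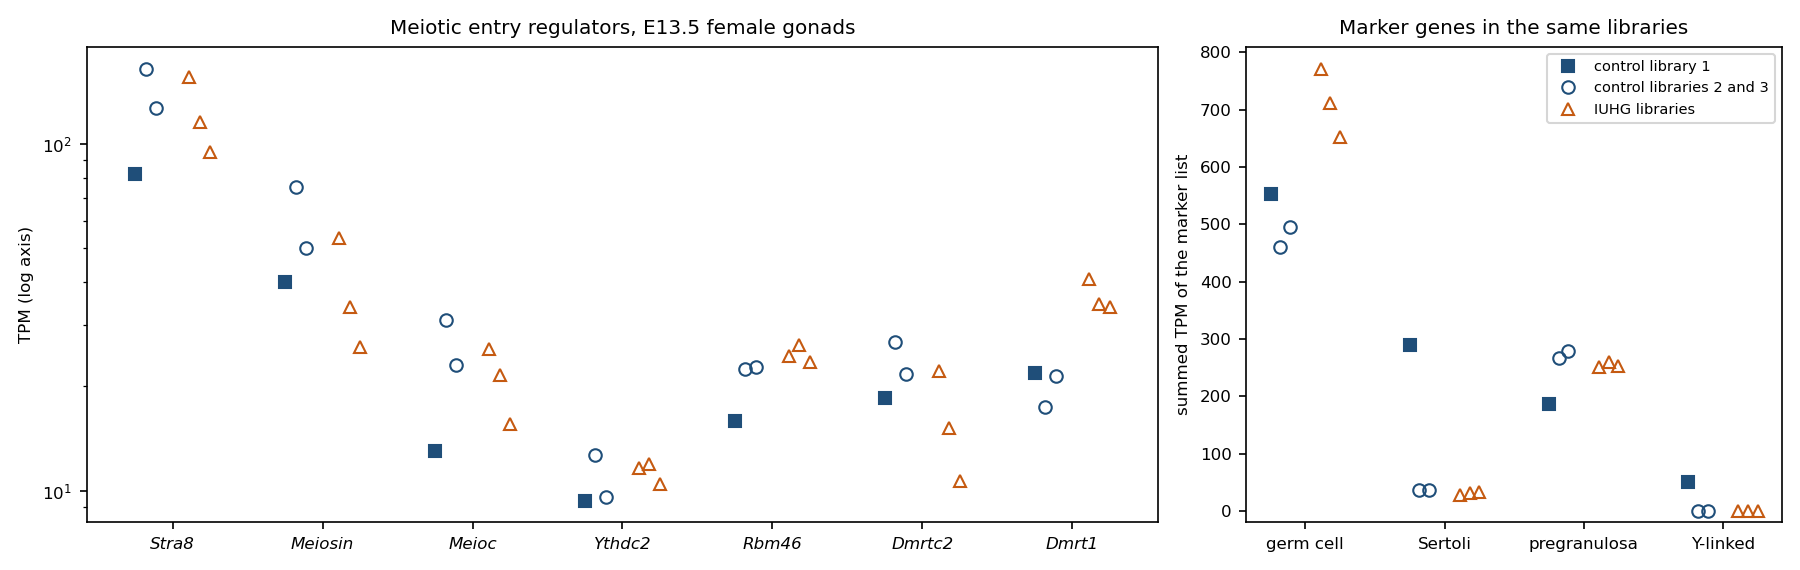
TPM of the 7 genes in each of the 6 whole gonad libraries, and the summed TPM of marker lists for germ, Sertoli and pregranulosa cells and of Y-linked genes; circles are controls, triangles are IUHG and the filled square is control library 1. That square has the Y-linked sum of 51.3 TPM and the Sertoli sum of 289 TPM, and *Dmrt1* is above all controls in the 3 IUHG libraries.

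In whole E13.5 female gonads the same genes were measured among somatic cells, with the call at an adjusted p under 0.05 and a log2 difference of at least 1. Control library 1, which held *Amh* at 178 TPM, *Nanos2* at 8.88 TPM and *Cyp26b1* at 22.9 TPM beside its Y-linked transcripts, was the lowest control for 6 of the 7 genes. *Stra8* was at 82.1, 165 and 127 TPM in controls and 156, 115 and 94.8 TPM in IUHG, so the groups overlapped. The difference was -0.00 (95% interval -0.58 to 0.57), and without control library 1 it was -0.27 (adjusted p = 0.498, limma), with means of 146 and 122 TPM. *Meiosin* was at 40.1, 75.1 and 50.3 TPM against 53.5, 33.9 and 26.0 TPM, a difference of -0.55 (adjusted p = 0.315, limma), and without library 1 it was -0.75 (adjusted p = 0.214, limma), a control mean 1.66 times the IUHG mean. *Dmrtc2* was at 18.6, 26.8 and 21.7 TPM against 22.2, 15.2 and 10.7 TPM, a difference of -0.50 (adjusted p = 0.28, limma), and without library 1 it was -0.62 (adjusted p = 0.251, limma), a control mean 1.51 times the IUHG mean. Gonad and PGC tables were normalized separately, and their levels are not set against each other.

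*Dmrt1* had the smallest p of the 7 in gonads. It was at 40.9, 34.7 and 34.0 TPM in IUHG gonads and 21.9, 17.4 and 21.4 TPM in controls, with a difference of 0.82 (SE 0.11) and an adjusted p of 0.0126 by limma, under the fold limit. The IUHG mean was 1.80 times the control mean with all libraries and 1.88 times without control library 1, when the difference was 0.88 (adjusted p = 0.0164, limma). *Rbm46* (24.55, 26.4 and 23.5 against 15.9, 22.4 and 22.8 TPM) was the other gene without overlap, 2 of 7 where 14.5% of genes were higher without overlap. *Meioc* (-0.04) and *Ythdc2* (0.11) overlapped. Without control library 1 the differences were -0.37 for *Meioc*, 0.04 for *Ythdc2* and 0.13 for *Rbm46*. None of the 7 was called with or without that library. With all libraries none was called, where 0.612% of 18150 genes were, and limma found 1 at an unadjusted p under 0.05, where 19.9% were found.

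The pan-germ marker sum was 461 to 552 TPM in control gonads and 653 to 771 TPM in IUHG gonads, without overlap. After each library was shifted so that *Ddx4*, *Dazl* and *Dnd1* had an equal mean, the differences were -0.98 for *Meiosin* (adjusted p = 0.000243), -0.93 for *Dmrtc2* (adjusted p = 0.000324), -0.48 for *Meioc* (adjusted p = 0.0337), -0.44 for *Stra8* (adjusted p = 0.0265) and 0.39 for *Dmrt1* (adjusted p = 0.0328) by limma, all under the fold limit. *Ythdc2* and *Rbm46* changed sign under this shift, which moved the median of all genes to -0.43. The shift takes *Ddx4*, *Dazl* and *Dnd1* as constant in germ cells, which was not tested. In sorted E13.5 female PGCs the pan-germ marker sum was itself higher in IUHG, without overlap. The shift, with all libraries kept, raised the number called over all 18150 genes from 111 to 627. Without control library 1, a choice made after seeing the data, *Meiosin* (-1.16, adjusted p = 4.85e-08) and *Dmrtc2* (-1.03, adjusted p = 1.86e-05) passed both limits under the shift by limma, 2 of 7 genes. The number called over all genes was then no higher than 627, which is a bound and not the share of genes called in this setting. With no share beside it, the 2 of 7 is not read as particular to these genes. *Meioc* was then at -0.78, *Stra8* at -0.68, *Ythdc2* at -0.37, *Rbm46* at -0.28 and *Dmrt1* at 0.47, and the median of all genes was -0.40.

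**Figure D4:**
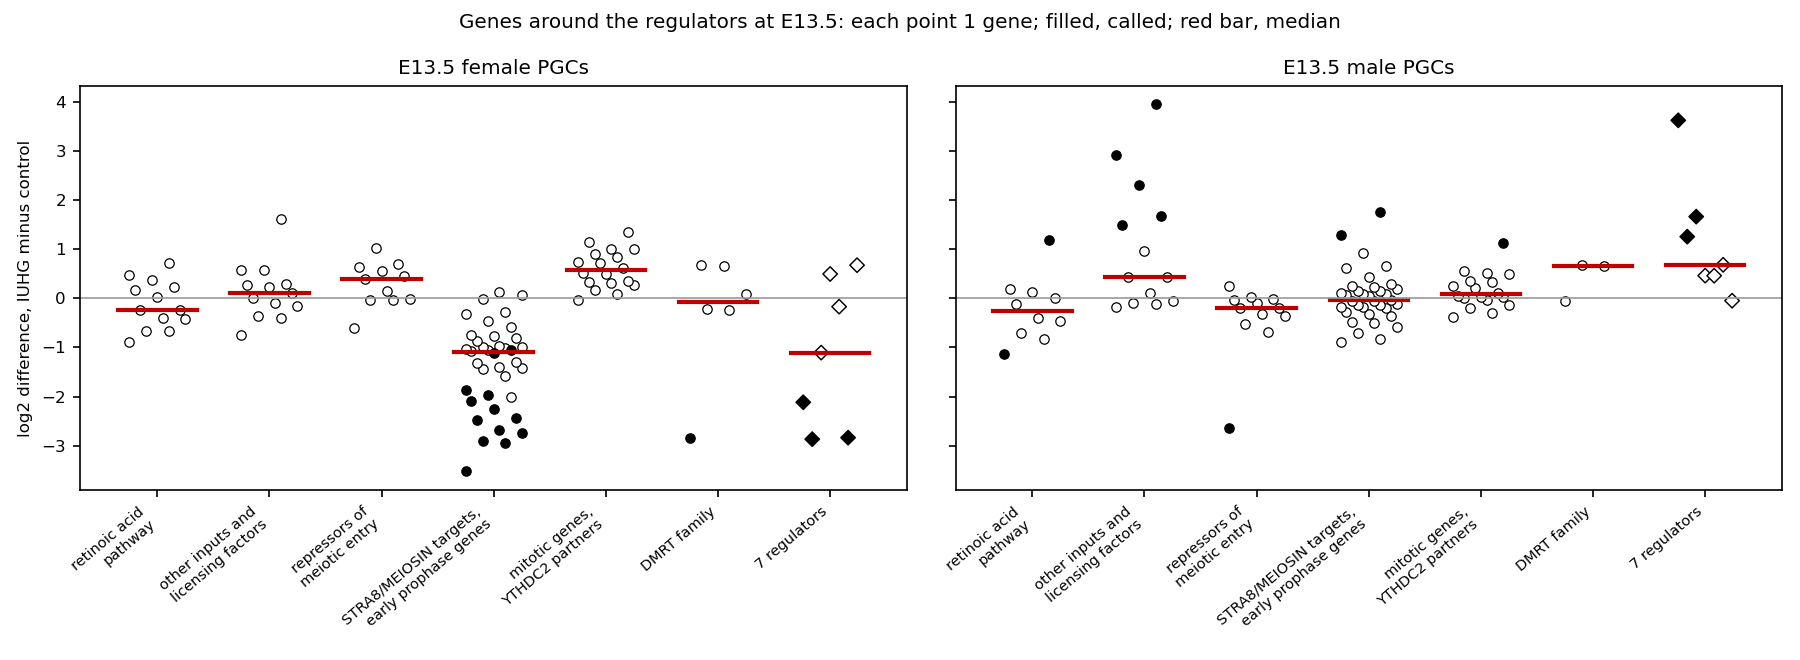
Log2 differences between IUHG and control in E13.5 female and male PGCs for the genes of 6 pathway lists and for the 7 regulators; each point is a gene and red bars are list medians. The median of the meiotic target list is -1.09 in females and -0.03 in males.

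The genes around the 7 regulators were counted by list. Of 38 targets of STRA8 and MEIOSIN and early prophase genes, 13 were called lower in E13.5 female IUHG PGCs, where 0.435% of all genes were, and none higher. Of the 38, 36 lay below 0, as did 40.6% of all genes, with a list median of -1.09 against 0.14 over all genes. Without IUHG library 3, 28 of the 38 were called lower, against 2.09% of all genes, and 38 lay below 0, against 48.6%, with a list median of -1.33. *Taf7l*, a germ cell TAF7-like factor, fell by 2.90, *Rad21l*, a meiotic cohesin subunit, by 2.94, *Mei1*, required for meiotic double-strand breaks, by 2.75, *Majin*, which anchors telomeres, by 2.44, and *Sycp3*, an axial element component, by 2.096. *Rec8*, another meiotic cohesin, had a difference of -0.46 (adjusted p = 0.188, limma). Of 18 mitotic cell cycle genes and partners of YTHDC2, 17 lay above 0, as did 59.4% of all genes, and none was called, with a median of 0.57. Without IUHG library 3, 15 lay above 0, against 51.4% of all genes, with a median of 0.35, and none was called. In the same list *Ccna2*, the S and G2 cyclin A2, was at 0.90 (adjusted p = 0.0325, limma). None of 13 inputs and licensing factors was called, with *Zglp1*, which drives the oogenic program, at 0.01 and *Gata2*, a BMP-responsive factor, at 0.27. Of these 13, 8 lay above 0, as did 59.4% of all genes. *Id1* was at 330, 278 and 229 TPM in IUHG, below the 421, 506 and 463 TPM of controls. *Msx2* was at 72.6, 84.3 and 119 TPM in IUHG, above the 54.6, 61.8 and 62.6 TPM of controls. The groups overlapped for *Msx1*. Of all genes, 13.2% were lower and 19.8% higher without overlap. None of the 13 tested genes of retinoic acid supply and reception was called.

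In E13.5 male IUHG PGCs 5 of 13 inputs were called higher, *Gata2* by 3.96, *Msx2* by 2.93, *Msx1* by 2.31, *Id1* by 1.69 and *Id2* by 1.49, all known targets of BMP signals, where 2.03% of all genes were called higher. *Nanos2*, the male repressor of meiosis, fell by 2.63, from 28.2, 31.9 and 31.3 TPM in controls to 5.44, 2.78 and 4.33 TPM, where 1.89% of all genes were called lower. Of the genes of retinoic acid supply and reception, *Crabp1*, a binding protein, rose by 1.18 and *Aldh1a2*, a retinoic acid synthesis enzyme, fell by 1.14. The interstitial marker sum was also lower in these IUHG libraries, and its part in the fall of *Aldh1a2* was not tested. Of 35 target genes tested, *Rec8* rose by 1.76 and *Majin* by 1.29 while 18 lay below 0, with a list median of -0.03, and 52.8% of all genes lay below 0. *Sycp3* stayed at 103 to 111 TPM in IUHG males against 115 to 124 TPM in controls. *Ccne1*, cyclin E1, rose by 1.13.

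At E16.5 none of the 38 target genes was called in females, where 0.736% of all genes were. Of the 38, 31 lay above 0, as did 52.8% of all genes, with a median of 0.32 against 0.04 over all genes. *Sycp3* was at 6355.7 ± 740 TPM in IUHG and 4769 ± 188 TPM in controls (SD, n = 3), a difference of 0.41 (adjusted p = 0.0218, limma). In gonads *Rad21l* was the only target called, lower by 1.30 (adjusted p = 0.0474, limma), where 0.231% of all genes were called lower, and 25 of 38 lay below 0, as did 48.3% of all genes. Without control library 1 no target was called, with *Rad21l* at -1.41 (adjusted p = 0.0617, limma), and 28 of 38 lay below 0, against 48.6% of all genes. In E12.5 and E16.5 male PGCs no gene of these lists was called. None of these lists was tested as a set, and *Dmrtc2* and *Dmrt1* also stand in the DMRT family list.

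Over the 30 PGC libraries, 11863 genes with a mean of at least 10 TPM in a group were ranked by the correlation of log2(TPM + 1) with each regulator; the libraries share stage, sex and treatment, so these are descriptions. Most like *Stra8* were *Nfkbia* (r = 0.90), *Timm17b* (0.89) and *Tmem41a* (0.88), a lower likeness than for any other of the 7. Most like *Meiosin* were *Majin* (0.99), *Syngr4* (0.99) and *H2-K1* (0.98), and most like *Dmrtc2* were *Mei1* (0.98), *H2-D1* (0.98) and *Tex12* (0.98). For *Meioc* they were *Gm56974*, *Nr3c1* and *Pde3b* (0.97 each), and for *Ythdc2* *Igf2r* (0.97), *Kmt2e* (0.97) and *B230354K17Rik* (0.97). For *Rbm46* they were *Pdk3*, *Arl8b* and *Yipf6* (0.97 each), and for *Dmrt1* *Dppa2* (0.98), *Atp5f1b* (0.97) and *Eddm13* (0.97). Among the 7, the closest pair was *Meiosin* with *Meioc* (0.95), *Stra8* was closest to *Meioc* (0.84), and *Dmrt1* was opposed to *Dmrtc2* (-0.80).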

How the data were processed

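RNA was measured in 36 mouse libraries, 30 of sorted PGCs and 6 of E13.5 female gonads, grouped by their labels. The authors deposited TPM, FPKM and coverage per gene for each library. PGC reads were aligned with STAR to mm39, and the submitters' processing notes also list FastQC, Trim Galore, featureCounts and DESeq2. The methods name StringTie for FPKM in the methylation work, and the tool that made the PGC tables themselves is not given in the sources used here. Gonad reads were processed with HISAT2 and StringTie 2, and gene starts in those tables match GRCm38, although the methods name another build. The deposited TPM have the same total in every library. Gigabases over genes, derived from coverage and FPKM, were 3.25 to 8.32 in PGCs and 3.89 to 4.95 in gonads, and counting error is not known.

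Here TPM were tested as log2(TPM + 1) with limma 3.58.1 in R 4.3.3 (lmFit, eBayes with trend), on genes with a mean of at least 1 TPM in a fitted group, over the groups of each comparison. Called PGC genes had a Benjamini-Hochberg adjusted p under 0.01 and a log2 difference above 1 in size. Called gonad genes had an adjusted p under 0.05 and a difference of at least 1, and interactions needed an adjusted p under 0.01. The test was checked on simulated data. p-values measure the spread between libraries labelled as biological replicates. All 7 members are reported, and genes most alike were the 3 with the highest Pearson r over 30 PGC libraries. The members and lists were chosen with earlier results of these data known. Alternatives were a test without the low-value filter, FPKM, scaling by the median of ratios, a pseudocount of 0.1, pan-germ scaling of gonads, unadjusted p, a replicate block, all PGC groups in 1 fit, each library left out, and, both chosen after seeing the data, coverage and pan-germ scaling without control gonad library 1. Tables were made with Python 3.11.15, numpy 2.4.6, pandas 2.3.3 and matplotlib 3.10.9.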

Additional observations from a re-analysis of the deposited data

Results flagged for a closer look

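The effect of IUHG differed between the sexes at E13.5, by a limma interaction term over 12 libraries, for 4 of the 7 genes. The female effect minus the male effect was -5.75 for *Stra8*, -4.13 for *Meiosin*, -3.52 for *Dmrtc2* and -2.77 for *Meioc* on the log2 scale.

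The effect of IUHG in E13.5 females also differed from those at E12.5 and in E16.5 females by the same kind of term. The E13.5 female effect minus the E12.5 effect was -2.09 for *Stra8*, -2.80 for *Meiosin* and -3.59 for *Dmrtc2*. The E12.5 libraries are not labelled by sex, and their Y-linked sums were lower in IUHG. Stage and sex therefore cannot be told apart in that term. The E16.5 female effect minus the E13.5 female effect was 2.31 for *Stra8*, 3.74 for *Meiosin* and 2.99 for *Dmrtc2*. Both stage comparisons use the same E13.5 female libraries, so they are not independent of each other. Groups of 3 libraries were too small for a test of outlying samples.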

How the results depend on the processing

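Over the 18 comparisons of 7 genes, most calls and directions were kept: FPKM kept 116 of 126, coverage (chosen after seeing the data) 124, median-of-ratios scaling 116, a pseudocount of 0.1 123, no filter 117, and leaving out 1 library 850 of 924. The replicate block changed 1 call (*Meioc*, E16.5 against E13.5 IUHG females, 1.53, called). Same-numbered libraries had correlations of -0.08 to 0.13, with 2 of 18 over 0.1, and differently numbered ones ranged from -0.15 to 0.14. With groups of 3 these values cannot decide whether libraries of the same number share more than the number. Under the block the genes called went from 85 to 216 at E13.5 in females and from 138 to 62 at E16.5 in females.

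The number of the 7 genes called moved as follows. For IUHG in E13.5 females (3) it was 0 without the filter and 0 to 4 with 1 library left out. For control E13.5 males against unsexed E12.5 PGCs (1) it was 0 on FPKM and on coverage and 0 to 1 with 1 left out. For control females from E13.5 to E16.5 (4) it was 2 under median-of-ratios scaling. For IUHG E13.5 females against unsexed E12.5 PGCs (4) it was 1 without the filter and 2 to 5 with 1 left out. For the sex difference in IUHG effect at E16.5 (0) it was 1 on unadjusted p and 0 to 1 with 1 left out. No filter tests more genes, and leaving out a library leaves fewer samples. For the rest the cause was not tested.

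Small differences changed sign. At E12.5 *Stra8* was 0.00033 on coverage. Pan-germ scaling gave -0.33 for *Ythdc2* and -0.15 for *Rbm46* in gonads, and without control library 1 (chosen after seeing the data) -0.37 and -0.28, with 2 of the 7 genes called against 0. With all libraries kept, pan-germ scaling raised the number called over all genes from 111 to 627. In control E13.5 males against unsexed E12.5 PGCs *Dmrt1* was 0.084 on FPKM and 0.0037 under median-of-ratios scaling, which also gave -0.0010 for *Meiosin* in control females from E13.5 to E16.5. The E13.5 sex difference in effect of *Ythdc2* was -0.094 on FPKM, -0.026 with a pseudocount of 0.1 and -0.18 under median-of-ratios scaling, and that of *Meioc* at E16.5 was -0.10 with a pseudocount of 0.1.

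With 1 library left out, the E12.5 effect ranged from -0.19 to 0.17 for *Stra8*, -0.20 to 0.15 for *Meiosin*, -0.12 to 0.034 for *Ythdc2* and -0.11 to 0.076 for *Dmrt1*. Others were *Rbm46* in E13.5 females (-0.45 to 0.020), *Dmrt1* in E16.5 females (-0.38 to 0.24), *Dmrtc2* in E16.5 males (-0.086 to 0.0047), and *Stra8* (-0.27 to 0.22) and *Meioc* (-0.37 to 0.22) in gonads. In control E13.5 males against unsexed E12.5 PGCs they were *Stra8* (-0.29 to 0.078), *Meiosin* (-0.0035 to 0.35), *Dmrtc2* (-0.21 to 0.52) and *Dmrt1* (-0.12 to 0.036). Among differences in effect they were *Ythdc2* between the sexes at E13.5 (-0.38 to 0.33), *Meioc* between the sexes at E16.5 (-0.17 to 0.18) and *Rbm46* between E13.5 and E16.5 (-0.10 to 0.36).

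Over all genes, the number called for IUHG at E12.5 was 34 and ranged from 2 to 155, 85 ranged from 1 to 1237 at E13.5 in females, 567 from 321 to 761 at E13.5 in males, 138 from 10 to 1580 at E16.5 in females, 42 from 9 to 234 at E16.5 in males and 111 from 5 to 627 in gonads.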
